A study of Homo sapiens with 5 samples.

Results

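The 10 genes described here encode selenoproteins, proteins in which a UGA codon inside the reading frame is read as selenocysteine. They were chosen by gene symbol, with no measured value as a criterion but with earlier results of these data known. They are GPX4, GPX1, TXNRD1, TXNRD2, SELENOW, SELENOS, SELENOK, SELENOT, SELENOF and MSRB1. They make up 10 of the 58929 genes measured, and each was found once. The libraries were made from A549, an established cell line of human lung adenocarcinoma. They are called ribosome footprint libraries in the design text of the series, but their molecule label is total RNA, and the word footprint is used here on the strength of that text. The study altered RBMS1, an RNA-binding protein. The RBMS1 knockdown group has 2 libraries, named sh1088 and sh1196 after their separate hairpins, and its control is 1 sh control library. The RBMS1 overexpression group has 1 library, named R1A, and its control is 1 library named pCDH. All 5 cultures received cycloheximide (100 ug/mL for 15 min), which stalls ribosomes on mRNA, and their lysates were treated with RNase I for 5 min. No label states that separate cultures were used, other than the different hairpins. Any p-value computed here rests on the spread among these few libraries, whether technical or biological, with variances shared over genes by the fit.

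UGA normally ends translation. In a selenoprotein mRNA a hairpin in the 3' untranslated region, the SECIS element, binds SECISBP2, which brings the elongation factor EEFSEC with selenocysteine-loaded tRNA to the ribosome, so that UGA is decoded instead. When selenium or a factor is short, ribosomes can stop at that codon. An mRNA with an exon junction far enough downstream of it can then enter nonsense-mediated decay. GPX1 is a textbook case, while GPX4 is known to hold its place in the selenium hierarchy. GPX4 reduces lipid hydroperoxides in membranes and is the main enzyme that blocks ferroptosis, and lung adenocarcinoma cells are often studied for that reliance.

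Each of these mRNAs has a UGA inside its reading frame that is recoded. The bases around it are shown for 6 of the 10, chosen to span early, middle and late codons. Each is read 5' to 3' from the mRNA in GENCODE release 29 (build GRCh38), with 18 bases before the codon and up to 18 after it, ending at the stop codon where that comes first. Capitals mark the recoded TGA.
GPX4: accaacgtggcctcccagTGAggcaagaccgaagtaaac
GPX1: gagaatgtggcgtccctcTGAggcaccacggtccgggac
SELENOW: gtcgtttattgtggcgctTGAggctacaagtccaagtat
SELENOF: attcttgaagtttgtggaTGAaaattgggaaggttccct
TXNRD1: atcctccaggctggctgcTGAggttaa
SELENOS: ggcccgtcatctggcggaTGAggctaa
In GPX4 the recoded codon lies at chr19:1105403-1105405 on the plus strand and is residue 73 of 197, with 343 bases of mRNA between it and the last exon junction. In GPX1 it lies at chr3:49358132-49358134 on the minus strand and is residue 49 of 203, with 106 bases to the last junction. SELENOW, at chr19:47780732-47780734 on the plus strand, has it earliest, at residue 13 of 87. SELENOF (chr1:86880690-86880692, minus strand) has it at residue 96 of 165. In TXNRD1 (chr12:104348413-104348415, plus strand) and SELENOS (chr15:101272777-101272779, minus strand) it is the residue before the last, at 498 of 499 and 188 of 189.

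Over all 10 genes the codon lay within the first 40% of codons in 4 (GPX4, GPX1, SELENOW and SELENOT) and within the last 3 codons in 4 (TXNRD1, TXNRD2, SELENOS and SELENOK). It lay upstream of the last exon junction in 9 of 10, and TXNRD1 was the exception. In those 9 the distance ran from 6 bases in SELENOK, 14 in SELENOS and 35 in MSRB1 to 471 in SELENOT. A place upstream of that junction does not by itself open an mRNA to decay, since the distance matters too. Whether any of these mRNAs entered decay was not tested. The base after it was G in 8 of 10 and A in SELENOF and MSRB1. The true stop codon was TAA in 6 of 10 and TAG in the other 4. The deposited values are sums per gene, so footprints before and after the recoded codon could not be counted apart.

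**Figure D1:**
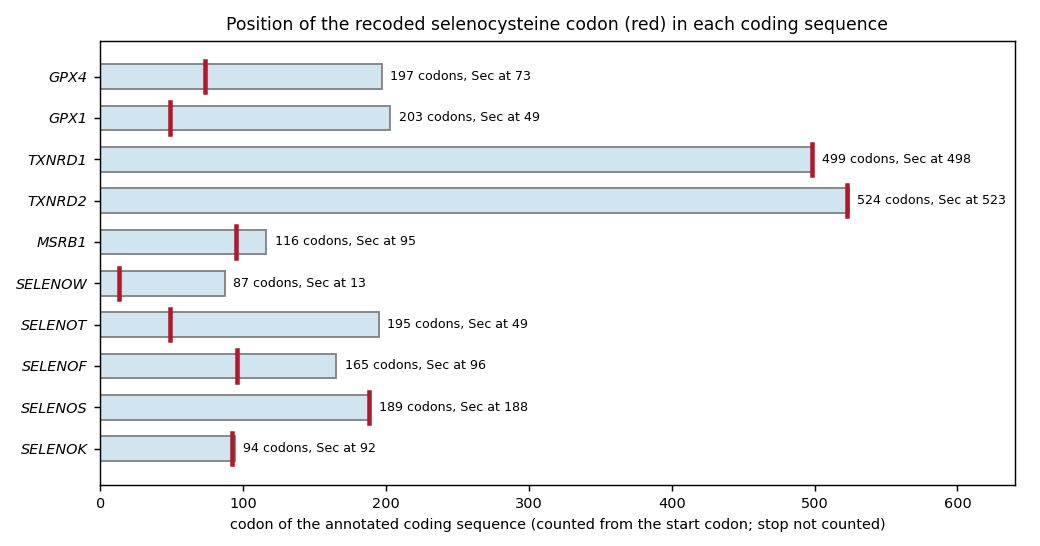
Each bar is the annotated coding sequence of one gene in codons from the start codon, and the red mark is the selenocysteine (Sec) codon. The marks sit early in GPX4, GPX1, SELENOW and SELENOT and at the very end in TXNRD1, TXNRD2, SELENOS and SELENOK.

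The libraries held 10327747 to 13980843 expected counts, of which nuclear protein-coding genes took 42.2% in sh1088 and 66.0% in sh1196, against 37.7% in the sh control, and 62.3% in the overexpression library, against 66.3% in the pCDH control. Levels are therefore given as CPM, the read count of a gene as a share of its library, scaled by TMM over the 5 libraries, unless another scale is named. RBMS1 itself, the check of the labels, had 18.3 CPM in sh1088 and 13.4 CPM in sh1196, against 31.2 CPM in the sh control, and 36.8 CPM in the overexpression library, against 25.0 CPM in the pCDH control. A549 markers (keratins, aldo-keto reductases and others) had counts for 9 of 9 genes. Their summed level was 10338 CPM in sh1088 and 8811 CPM in sh1196, against 11845 CPM in the sh control, and 13823 CPM in the overexpression library, against 7178 CPM in the pCDH control. By sign, the edgeR fit for knockdown put 9 of 9 of these markers lower, at a median log2 fold change of -0.40. The smallest change was -0.02 (SE 0.78) for ALDH1A1, and 0 of 9 had an unadjusted edgeR p under 0.05. Both hairpins were lower for 8 of 9, where 36.5% of all genes were, and AKR1B10 was higher in sh1088, at a log2 ratio of 0.20. Overexpression had 9 of 9 higher, at a median log2 ratio of 0.77, where all genes had 0.07. Most markers thus had the signs of GPX4, and their part in the results below was not tested. Summed fibroblast, immune and endothelial markers stayed at or below 21.7 CPM in each library. Of these markers DCN, PTPRC, CD3E, MS4A1, VWF and KDR had 0 counts throughout. The highest were CD14, with a mean of 13.0 CPM, and COL1A1, with 4.28 CPM. Both were higher in the pCDH control, at 363 and 167 reads, than in the sh control, at 55 and 10 reads.

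Compared per length, by the authors' TPM rescaled to a fixed sum (that of TPM) over nuclear protein-coding genes, TXNRD1 was the most abundant of the 10 at 2079 ± 643 (mean and SD over the 5 libraries). SELENOF followed at 519 ± 202, GPX4 at 308 ± 116 and SELENOS at 307 ± 74.7. GPX1 had 116 ± 78.4, MSRB1 91.8 ± 29.5, SELENOW 90.0 ± 35.0, SELENOT 78.4 ± 33.2, SELENOK 49.0 ± 21.3 and TXNRD2 19.0 ± 5.85. TXNRD1 exceeded SELENOF, SELENOS exceeded GPX1 and SELENOK exceeded TXNRD2 in 5 of 5 libraries. GPX4 exceeded SELENOS in 2 of 5, MSRB1 exceeded SELENOW in 3 of 5 and SELENOW exceeded SELENOT in 3 of 5, so the order of these neighbours is not resolved. The lengths used are those of RSEM, which are not coding lengths. They averaged 801 nt for TXNRD1, of 499 codons, and 1411 nt for SELENOT, of 195 codons. Both the order and the size of the gaps depend on them, and levels per coding length were not computed. By counts, TXNRD1 supplied 64.4% of the members' summed CPM in sh1088 and 62.0% in sh1196, against 55.3% in the sh control. It supplied 59.5% in the overexpression library, against 59.96% in the pCDH control.

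GPX4 (ENSG00000167468.16, chromosome 19, 1103926 to 1106791, plus strand), the membrane lipid peroxidase, had 122 CPM in sh1088 and 79.9 CPM in sh1196, against 180.1 CPM in the sh control. It had 69.3 CPM in the overexpression library, against 41.8 CPM in the pCDH control. Both knockdown libraries were thus below their control and the overexpression library above its own, while both libraries of the pCDH pair lay below every library of the hairpin set. The values rest on 721 to 1438 reads. For knockdown edgeR's quasi-likelihood test gave a log2 fold change of -0.79, with SE 0.50 and an adjusted p of 0.828 (n = 2 against 1), which did not pass. Taken singly the log2 ratio to the sh control was -0.56 (95% counting interval -0.67 to -0.45) in sh1088 and -1.17 (-1.29 to -1.06) in sh1196. The overexpression log2 ratio was 0.73 (0.59 to 0.88), from 1 library against 1 and with no replicate check. By the authors' TPM, which is not scaled for the differing make-up of the libraries, GPX4 had 68.5 in sh1088 and 91.3 in sh1196, against 51.7 in the sh control, and 74.1 in the overexpression library, against 74.5 in the pCDH control. On that scale all genes together had a median log2 ratio of 1.04 for knockdown and -0.69 for overexpression, and with these medians taken out GPX4 was lower in knockdown and higher in overexpression, as by CPM. Fewer ribosomes on each mRNA and fewer mRNA molecules cannot be told apart, because no matched RNA values were used here.

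**Figure D2:**
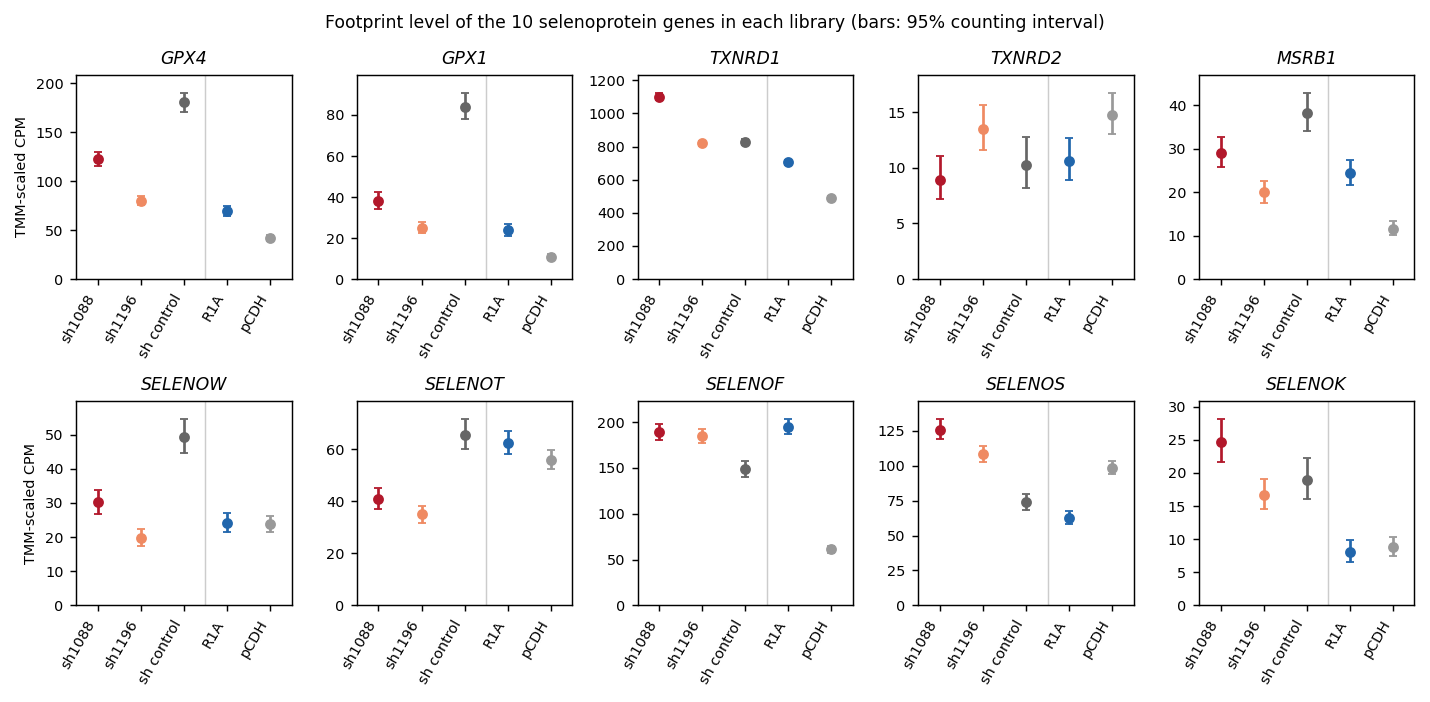
TMM-scaled CPM (vertical axis, from 0) of each gene in each library, with 95% counting intervals; the grey line parts the hairpin libraries from the R1A and pCDH pair. GPX4 and GPX1 are lowest in the pCDH control (41.8 and 10.7 CPM) and highest in the sh control (180.1 and 84.1 CPM).

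GPX1 (ENSG00000233276.5, chromosome 3, 49357171 to 49358600, minus strand), the cytosolic glutathione peroxidase that reduces hydrogen peroxide, followed the same order with wider gaps. It had 38.1 CPM in sh1088 and 24.9 CPM in sh1196, against 84.1 CPM in the sh control, and 23.7 CPM in the overexpression library, against 10.7 CPM in the pCDH control. Its highest and lowest libraries differed 7.89-fold, the widest range of the 10, where GPX4 differed 4.31-fold and TXNRD2 1.65-fold. The edgeR log2 fold change for knockdown was -1.37 with SE 0.46, at an unadjusted p of 0.0177 and an adjusted p of 0.828. In the authors' deposited table the GPX1 log2 fold change was -1.38 with an adjusted p of 0.00596, whereas DESeq2 run here on the same counts gave no member an adjusted p below 0.908; the cause of that gap was not tested. The hairpins stood at -1.14 (-1.33 to -0.95) for sh1088 and -1.76 (-1.95 to -1.56) for sh1196, and overexpression at 1.15 (0.88 to 1.43). GENCODE release 29 types this gene as a polymorphic pseudogene, and its 2 annotated pseudogene copies had 0 counts in the 5 libraries.

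The thioredoxin reductases, which pass electrons from NADPH to thioredoxin, did not follow the order of GPX4. TXNRD1 (ENSG00000198431.16, chromosome 12, 104215779 to 104350305, plus strand), the cytosolic enzyme and a target of NRF2, had 1101 CPM in sh1088 and 820.0 CPM in sh1196, against 828 CPM in the sh control. It had 706 CPM in the overexpression library, against 489.6 CPM in the pCDH control. One hairpin was above the control and the other level with it, at log2 ratios of 0.41 (0.37 to 0.46) for sh1088 and -0.01 (-0.06 to 0.03) for sh1196, and the overexpression log2 ratio was 0.53 (0.48 to 0.57). The fitted knockdown value was 0.26 (SE 0.61, edgeR adjusted p = 0.953). TXNRD1 shares strand and span with EID3 and RPL18AP3, so its counts are uncertain where those overlap. TXNRD2 (ENSG00000184470.21, chromosome 22, 19875517 to 19941992, minus strand), the mitochondrial enzyme, had 8.94 CPM in sh1088 and 13.5 CPM in sh1196, against 10.3 CPM in the sh control, and 10.6 CPM in the overexpression library, against 14.8 CPM in the pCDH control. The hairpins lay on either side of the control, at -0.20 (-0.65 to 0.25) and 0.39 (0.01 to 0.79), and overexpression stood at -0.47 (-0.79 to -0.16). Only 82 to 255 reads per library stood behind these values.

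MSRB1 (ENSG00000198736.11, chromosome 16, 1938210 to 1943326, minus strand) reduces oxidised methionine in proteins. It had 28.998 CPM in sh1088 and 19.9 CPM in sh1196, against 38.2 CPM in the sh control, and 24.5 CPM in the overexpression library, against 11.6 CPM in the pCDH control. For knockdown edgeR gave a log2 fold change of -0.60 with SE 0.46 and an adjusted p of 0.848, and its overexpression ratio was 1.08 (0.81 to 1.34). SELENOW (ENSG00000178980.15, chromosome 19, 47778572 to 47784686, plus strand), a small cytosolic protein of thioredoxin-like fold, had 30.1 CPM in sh1088 and 19.7 CPM in sh1196, against 49.4 CPM in the sh control. It had 24.1 CPM in the overexpression library, against 23.8 CPM in the pCDH control. SELENOW was thus below its control in both hairpins (edgeR log2 fold change -0.94, SE 0.46, adjusted p = 0.828), while its overexpression log2 ratio was 0.02 (-0.20 to 0.24), an interval that includes 0.

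The remaining members sit in the endoplasmic reticulum. SELENOF (ENSG00000183291.17, chromosome 1, 86862445 to 86914424, minus strand), which binds the glycoprotein-folding sensor UGGT, had 189 CPM in sh1088 and 185 CPM in sh1196, against 149 CPM in the sh control. It had 195 CPM in the overexpression library, against 61.1 CPM in the pCDH control, a log2 ratio of 1.67 (1.57 to 1.78) and the largest overexpression ratio of the 10. The sh1088, sh1196 and overexpression libraries were close together for SELENOF, and it was the pCDH control that lay apart. SELENOS (ENSG00000131871.15, chromosome 15, 101270817 to 101277500, minus strand), which anchors the degradation ATPase VCP at the membrane, had 126 CPM in sh1088 and 109 CPM in sh1196, against 73.8 CPM in the sh control. It had 62.8 CPM in the overexpression library, against 98.7 CPM in the pCDH control. SELENOS was thus the one member higher than control in both hairpins and lower in overexpression, with counting intervals clear of 0 in each, at 0.77 (0.63 to 0.91), 0.56 (0.42 to 0.70) and -0.65 (-0.78 to -0.53). Its fitted knockdown value, 0.71 (SE 0.49, edgeR adjusted p = 0.831), did not pass.

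SELENOK (ENSG00000113811.11, chromosome 3, 53884410 to 53891988, minus strand), a membrane partner of the palmitoyltransferase DHHC6, had 24.7 CPM in sh1088 and 16.7 CPM in sh1196, against 18.9 CPM in the sh control. It had 8.04 CPM in the overexpression library, against 8.81 CPM in the pCDH control. The hairpins fell on either side of the sh control, and the overexpression interval (-0.52 to 0.25) included 0. SELENOT (ENSG00000198843.13, chromosome 3, 150602875 to 150630445, plus strand), a thioredoxin-like oxidoreductase, had 41.0 CPM in sh1088 and 34.9 CPM in sh1196, against 65.5 CPM in the sh control, and 62.4 CPM in the overexpression library, against 55.8 CPM in the pCDH control. Its value is uncertain, because 2 annotated pseudogene copies took up to 68.5% as many reads as SELENOT itself, in sh1196. With those reads added, which was done after seeing them, the log2 ratios were -0.46 for sh1088, -0.36 for sh1196 and 0.37 for overexpression, where SELENOT alone had -0.68, -0.91 and 0.16. SELENOT also lies opposite SERP1, and whether the counting used strand, without which reads of the pair cannot be told apart, is not given in the sources used.

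The knockdown comparison as a whole asked whether these mRNAs carried more or fewer footprints when RBMS1 was depleted. By edgeR 0 of 10 members passed the adjusted threshold of 0.05, as did 0% of the 14913 genes tested. At an unadjusted p under 0.05 there was 1 member, GPX1, against 5.87% of all genes. Both hairpins were lower than the sh control for 5 members (GPX4, GPX1, SELENOW, SELENOT and MSRB1), where 36.5% of all genes were, and higher for 2 (SELENOS and SELENOF), where 34.4% were. In sh1088 1 member, GPX1, was at least 2-fold below the sh control and 0 were above it, where 3.71% of genes with a mean CPM of at least 5 were below, 3.65% above and 7.37% either. In sh1196 3 members (GPX4, GPX1 and SELENOW) were at least 2-fold below and 0 above, where 13.1% of genes were below, 10.5% above and 23.6% either. Over the members the median fitted change was -0.22, and over all genes it was 0.07. Set against sh1088, the sh1196 library was lower for 9 of 10 members, by a median log2 ratio of -0.48, where all genes had 0.04; no member differed by 2-fold or more, where 13.5% of genes with a mean CPM of at least 5 did (6.27% higher and 7.22% lower). By library size 7 members were higher and 3 lower in sh1196, with a median of 0.12 over the members and 0.65 over all genes, so the direction of the 9 holds relative to other genes only. SELENOT was among the 9, and with its pseudogene copies added it stood at 0.10 in place of -0.23. RBMS1 was also the lower in sh1196 by TMM, at a log2 ratio of -0.45. It had 173 of 10327747 counts there and 176 of 11739398 in sh1088, so by library size it was not lower.

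The overexpression comparison is 1 library against 1, so no p-value was computed for it. The authors' deposited table does give adjusted p-values for it, of 0.0205 for GPX4 (log2 fold change 0.78), 0.000645 for GPX1 (1.46), 1.75e-07 for SELENOF (1.53) and 0.0975 for MSRB1 (0.83). How that table estimated the spread from 1 library a group is not stated in the sources used, and nothing below rests on it. A difference of 2-fold or more was reached upward by 3 of 10 members (GPX1, SELENOF and MSRB1), where 15% of 10567 genes did so, and downward by 0, where 13.3% did, which makes 28.4% of genes either way. Counting intervals lay above 0 for 6 members, below 0 for 2 (SELENOS and TXNRD2) and across 0 for 2 (SELENOW and SELENOK). The share of all genes with intervals clear of 0 was not computed, so these counts have no background to be read against. The median log2 ratio was 0.34 over the members and 0.07 over all genes. Across genes this comparison moved with the GC content of the transcript (Spearman rho -0.58 over 10044 genes, which share the same pair of libraries), and the mean fragment length, derived from RSEM's effective gene lengths, was 40.9 nt in the overexpression library, against 52.3 nt in the pCDH control. GPX4 and GPX1 have transcripts of 63.4% and 63.1% GC, and SELENOT and SELENOF of 39.2% and 39.4%. With the GC trend taken out, the overexpression log2 ratio became 1.63 for GPX4, 2.03 for GPX1, 1.66 for MSRB1, 0.995 for SELENOF, 0.18 for TXNRD1, -0.53 for SELENOT, -0.52 for SELENOK and 0.16 for TXNRD2. The members past 2-fold were then GPX4, GPX1 and MSRB1. SELENOS stayed at -0.69 and SELENOW had 0.37.

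**Figure D3:**
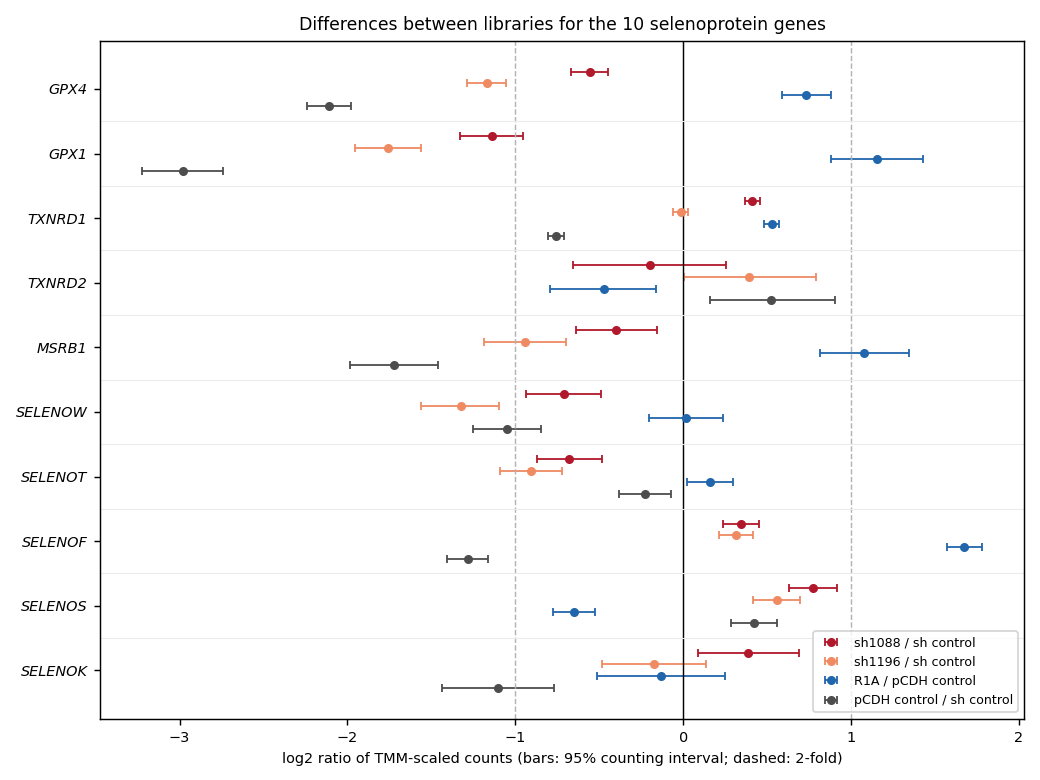
Log2 ratios of TMM-scaled counts (horizontal axis) with 95% counting intervals for both hairpins over the sh control, overexpression over the pCDH control, and the pCDH control over the sh control; dashed lines mark 2-fold. For GPX4 and GPX1 the dark grey points, the difference between the 2 controls (-2.11 and -2.98), lie farther from 0 than any treated library does.

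The controls themselves differed, by a median log2 ratio of -1.08 over the members and -0.03 over all genes. In the pCDH control 6 of 10 members were at least 2-fold lower than in the sh control (GPX4, GPX1, SELENOW, SELENOK, SELENOF and MSRB1), where 19.2% of 10566 genes were, and 0 were at least 2-fold higher, where 16.9% were; either way the share over all genes was 36.1%. That split depends on the scaling: by library size 2 members were at least 2-fold lower (GPX4 at -1.26 and GPX1 at -2.13) and 2 higher (TXNRD2 at 1.37 and SELENOS at 1.26), with a median of -0.23 over the members and 0.82 over all genes. For GPX4 the log2 ratio of pCDH control to sh control was -2.11 (-2.24 to -1.98) and for GPX1 it was -2.98 (-3.22 to -2.74). By TMM, SELENOS and TXNRD2 were the members higher in the pCDH control, at 0.42 (0.28 to 0.56) and 0.52 (0.16 to 0.90). The vector system and any difference in culture or library preparation cannot be told apart in this contrast. GC content moved with it too (rho 0.39 over 10037 genes), and without that trend GPX4 stood at -2.86 and GPX1 at -3.72. SELENOS then stayed at 0.42, while TXNRD2 stood at -0.03 and SELENOT at 0.28, where by TMM SELENOT had -0.23. Which members were higher in the pCDH control thus depends on the processing.

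A fit over all 5 libraries, with RBMS1 level coded -1 for knockdown, 0 for control and 1 for overexpression and a term for the vector system, used both arms at once. By edgeR 0 of 10 members passed the adjusted threshold, as did 0% of 14523 genes, and 1 of 10 had an unadjusted p under 0.05, where 6.62% of all genes did. That member was GPX1, with a log2 slope of 1.31 per level (SE 0.37, unadjusted p = 0.00598, edgeR adjusted p = 0.718). GPX4 had 0.79 (SE 0.38) and MSRB1 0.83 (SE 0.38), both at an edgeR adjusted p of 0.718. The slope was positive for 7 members and negative for SELENOS (-0.66), TXNRD2 (-0.28) and SELENOK (-0.13), with a median of 0.55 over the members and 0.03 over all genes. RBMS1 itself had 0.80 (SE 0.37).

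The genes whose pattern over the 5 libraries was most like that of GPX4 were found by the root mean square difference of centred log2 CPM among 5733 protein-coding genes with a mean CPM of at least 20. They were TOMM7, a small subunit of the mitochondrial import pore (0.05), NTPCR, a nucleoside triphosphatase (0.05), RANGRF (0.05), NBDY, a short polypeptide of the decapping complex (0.06), and HIST2H2BE, a histone H2B (0.08). TOMM7, for example, had 47.5 CPM in sh1088 and 28.6 CPM in sh1196, against 68.7 CPM in the sh control, and 26.6 CPM in the overexpression library, against 16.4 CPM in the pCDH control. GPX1, which is not typed as protein-coding, and SELENOK and TXNRD2, with lower means, were outside this search. Among the 6 other members that were ranked MSRB1 came nearest, at rank 114 with a difference of 0.25, SELENOW stood at rank 692 and SELENOS at rank 3058. For TXNRD1 the nearest genes were METTL23 (0.06), ETHE1 (0.08), RTCA (0.09), MIS12 (0.10) and CISD1 (0.10). None of these 5 is a selenoprotein.

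Of 15 further selenoprotein genes, 11 could be tested for knockdown and 0 passed, with 5 higher and 6 lower and a median log2 fold change of -0.03. GPX6, DIO1, DIO3 and SELENOV had 0 counts in the 5 libraries, which by the limit of 3 counts used for a count of 0 allows up to 0.376 CPM in the sh control, where 1 read weighs most after scaling. GPX2, the epithelial peroxidase, had 280.3 CPM in sh1088 and 27.5 CPM in sh1196, against 258 CPM in the sh control, so the hairpins disagreed by an order of magnitude. It had 217 CPM in the overexpression library, against 92.2 CPM in the pCDH control. SELENOH, a nuclear selenoprotein, had 83.1 CPM in sh1088 and 47.9 CPM in sh1196, against 123 CPM in the sh control, and 51.5 CPM in the overexpression library, against 54.6 CPM in the pCDH control. By value it lay below control in both hairpins, like GPX4, and level with control in overexpression. SELENOI, the ethanolamine phosphotransferase, had 156 CPM in sh1088 and 139.8 CPM in sh1196, against 88.7 CPM in the sh control, and 161 CPM in the overexpression library, against 55.3 CPM in the pCDH control, a pattern of values close to that of SELENOF. SELENOM, of the endoplasmic reticulum, had 37.8 CPM in sh1088 and 32.8 CPM in sh1196, against 51.6 CPM in the sh control, and 16.5 CPM in the overexpression library, against 33.4 CPM in the pCDH control. SELENON had 28.5 CPM in the overexpression library, against 95.1 CPM in the pCDH control, and both hairpins lay near their control. DIO2, SELENOO and SEPHS2, the other 3 with a mean CPM of at least 5, stayed within 2-fold of their control in both arms.

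The 14 genes of the decoding machinery and selenium supply also gave 0 calls by edgeR, with 11 higher and 3 lower in knockdown and a median log2 fold change of 0.54, against 0.07 over all genes. By value both hairpins were higher for 10 of the 14, where 34.4% of all genes were, and lower for 3, where 36.5% were. SECISBP2, the SECIS-binding protein, had 43.3 CPM in sh1088 and 29.7 CPM in sh1196, against 24.1 CPM in the sh control, and 46.3 CPM in the overexpression library, against 15.7 CPM in the pCDH control. It was above its control in each treated library, and the elongation factor EEFSEC was so by value, with 6.96 CPM in sh1088 and 7.90 CPM in sh1196, against 4.76 CPM in the sh control, and 8.37 CPM in the overexpression library, against 4.17 CPM in the pCDH control. TRIT1, which modifies the selenocysteine tRNA, had 16.5 CPM in sh1088 and 17.9 CPM in sh1196, against 8.52 CPM in the sh control. Counting intervals lay above 0 in both hairpins for 5 genes, SECISBP2, SECISBP2L, TRIT1, NCL and LRP8. The share of all genes with intervals above 0 in both hairpins was not computed. TRNAU1AP, SEPSECS and SCLY, which recycles selenium, were higher in both by value, but at least 1 of their hairpin intervals included 0.

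The other machinery genes followed several orders. RPL30, a ribosomal protein that also binds SECIS elements, had 147 CPM in sh1088 and 115 CPM in sh1196, against 261 CPM in the sh control, and 136 CPM in the overexpression library, against 81.5 CPM in the pCDH control. By value it lay on the same side of its control as GPX4 in each treated library. LRP8, a receptor for the selenium carrier SELENOP, had 17.8 CPM in sh1088 and 25.8 CPM in sh1196, against 11.7 CPM in the sh control, and 37.6 CPM in the overexpression library, against 88.2 CPM in the pCDH control. NCL, nucleolin, was higher in both hairpins and lower in overexpression, and EIF4A3, which binds the SECIS element of GPX1 and blocks its decoding, had 70.7 CPM in sh1088 and 109.5 CPM in sh1196, against 71.7 CPM in the sh control, and 118 CPM in the overexpression library, against 50.3 CPM in the pCDH control. SARS, which charges the tRNA with serine, and SEPHS1 were lower in both hairpins. In the fit over RBMS1 level 2 of the 14, LRP8 and RPL30, had an unadjusted edgeR p under 0.05, where 6.62% of all genes did. Of the 14, 0 passed adjustment, as did 0% of 14523 genes.

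**Figure D4:**
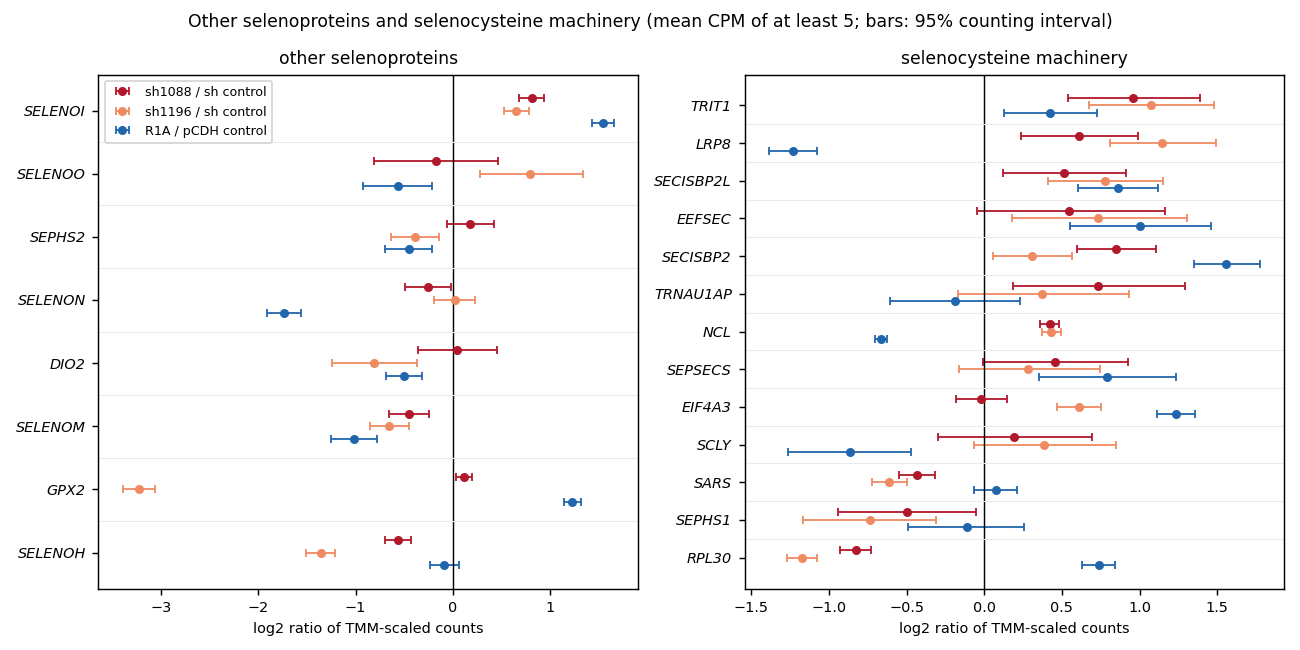
Log2 ratios of TMM-scaled counts with 95% counting intervals for 8 other selenoproteins and 13 machinery genes with a mean CPM of at least 5. GPX2 in sh1196 lies at -3.23, and most machinery points for the hairpins lie right of 0.

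Relatives that carry cysteine in place of selenocysteine, and the partners that supply or use the same reducing power, were described for comparison. Of 8 relatives 6 were tested for knockdown, 3 higher and 3 lower, with a median of -0.05, and GPX5 and GPX7 had 0 counts in the 5 libraries. GSTO1 was in the relatives list, but it is a glutathione transferase and not the cysteine form of a selenoprotein. It had 162 CPM in sh1088 and 112 CPM in sh1196, against 227 CPM in the sh control. In the overexpression library it had 154 CPM, against 70.2 CPM in the pCDH control. Its knockdown value was -0.68 (SE 0.51, edgeR adjusted p = 0.845). MSRB2, MSRB3 and TXNDC12, next by knockdown p, had overexpression log2 ratios of -0.23, -0.91 and -1.17, each below 0, where that of GSTO1 lay above. Of 18 glutathione and thioredoxin partners 16 were tested, 5 higher and 11 lower, with a median of -0.09 and 0 passing by edgeR. PRDX4, the peroxiredoxin of the endoplasmic reticulum, had 104 CPM in sh1088 and 142 CPM in sh1196, against 72.4 CPM in the sh control, and 142 CPM in the overexpression library, against 253 CPM in the pCDH control. GLRX5, a mitochondrial glutaredoxin, had 23.0 CPM in sh1088 and 19.99 CPM in sh1196, against 13.8 CPM in the sh control, and 19.3 CPM in the overexpression library, against 39.5 CPM in the pCDH control. PRDX4 and GLRX5 were thus on the other side of their control from GPX4 in each treated library. PRDX5 had 236 CPM in sh1088 and 181 CPM in sh1196, against 341 CPM in the sh control, and 132 CPM in the overexpression library, against 134 CPM in the pCDH control. PRDX5 was below its control in both hairpins, like GPX4, and level with it in overexpression. TXN2, mitochondrial thioredoxin, had 20.8 CPM in sh1088 and 16.2 CPM in sh1196, against 24.9 CPM in the sh control, and 16.2 CPM in the overexpression library, against 17.96 CPM in the pCDH control.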

How the data were processed

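Each of the 5 libraries came with an RSEM table of expected counts per gene, made by the authors, beside TPM and FPKM, per the file headers; FPKM was not analysed. The authors also deposited 2 comparison tables with log2 fold changes, a mean signal and p-values, per the file headers, and their count columns equal the library tables (largest difference 0). Tools listed in the submitters' processing notes, with no role stated, are RSEM 1.3.1, STAR 2.4.2, Bowtie and DESeq2. The authors' genome build is not given in the sources used here. Of 58929 gene identifiers 58656 matched GENCODE release 29 (GRCh38), used for coordinates, transcripts, selenocysteine codons and GC content.

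Groups were taken from the labels. Expected counts were rounded and tested over all genes with edgeR 4.0.16 (quasi-likelihood, robust, TMM, filterByExpr, Benjamini-Hochberg at 0.05) in R 4.3.3. The knockdown fit has 1 residual degree of freedom and assumes that the lone sh control varies like the knockdown libraries. The fit on RBMS1 level has 2, of which 1 is the gap between the hairpins. The other is any difference in slope between the knockdown and overexpression arms, which is not a spread among replicates. In both fits edgeR shares variance over genes, so the p-values rest on more than these degrees of freedom. Comparisons of 1 library with 1 give log2 ratios with an exact conditional binomial 95% interval, and CPM intervals are exact Poisson; both cover counting error only, and PCR copies are not independent molecules. Their background is genes with mean CPM of at least 5. Alternatives were RLE and library-size scaling, no filter, DESeq2 1.42.0, limma-voom (limma 3.58.1), centred TPM (pseudocount 1), GC and length trends, and leaving out a hairpin. The test scripts were tested on simulated data. The members, gene lists and naming rule (all members, listed genes with mean CPM of at least 5 or, for relatives and partners, up to 4 with the smallest knockdown p, and the 5 genes most like GPX4 and TXNRD1) were chosen with earlier results of these data known.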

Additional observations from a re-analysis of the deposited data

How the results depend on the processing

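In both edgeR comparisons the number of members that passed stayed at 0 under every alternative run, including leaving out either hairpin library in the RBMS1 level fit; for the knockdown comparison leaving one out leaves no residual degree of freedom, so it gives values with no test. Over those alternatives the adjusted p of GPX1 ran from 0.385 to 0.921 for knockdown and from 0.209 to 0.726 for level, and that of GPX4 for knockdown from 0.828 to 0.9998. Calls over all genes were 0 for knockdown by the reported fit, 27 with library-size scaling, 102 with no low-count filter and 17 by DESeq2; for level they were 0, against 28, 89 and 56, and 28 without sh1088 or 22 without sh1196. Library-size scaling also moved the median of all genes to 0.62 for knockdown and to -0.35 for level. GPX4 kept its negative knockdown value under each alternative (-1.17 to -0.31), as did GPX1 (-1.76 to -0.89). Directions turned in the knockdown comparison for TXNRD1 (-0.014 without sh1088 and 0.41 without sh1196), SELENOK (-0.18 and 0.39) and TXNRD2 (0.39 and -0.20), and for TXNRD2 by centred TPM (-0.30). In the level fit they turned for SELENOK (0.025 without sh1088 and -0.29 without sh1196) and, with library-size scaling, for TXNRD1 (-0.24). The members at least 2-fold apart between the pCDH control and the sh control numbered 3 with the length trend taken out, where 6 were counted before, and between sh1196 and sh1088 they numbered 1 with library-size scaling, where 0 were counted before; the cause was not tested. For the controls the count was 4 by library size, by centred TPM and with the GC trend taken out, and by library size it split into 2 lower and 2 higher; that scaling put 7 of 10 members higher in sh1196 than in sh1088. The corrections for GC in the comparisons other than overexpression, for length, the adding of pseudogene copies to SELENOT and the scaling to nuclear protein-coding counts were chosen after seeing the data. For overexpression the count was 2 by library size, by centred TPM and with the length trend taken out, where 3 were counted before. SELENOT turned there from 0.16 to -0.69 by centred TPM. Between the controls SELENOT turned from -0.23 to 0.95 by centred TPM, 0.62 by library size and 0.28 with the GC trend taken out. TXNRD2 turned between the controls from 0.52 to -0.04 by centred TPM and -0.03 with the GC trend taken out. TXNRD1 turned from -0.76 to 0.09 by library size. With a minimum mean CPM of 1 the background of genes 2-fold apart became 33.6% for overexpression, 40.9% for the controls and 18.9% for the hairpins. No paired analysis was possible because the groups compared share fewer than 2 replicate numbers.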
